A study of Drosophila melanogaster with 6 samples.

Results

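The regions described here are the binding sites, or peaks, of the Hybrid male rescue protein HMR on the X chromosome of Drosophila melanogaster. Members were all peaks that the 2 deposited peak lists place on the X, and they were classed by position alone. A peak was shared when it overlapped a peak of the other list by at least 1 bp, and otherwise it was induced-only or uninduced-only. The X held 450 of the 2360 distinct peak positions in the series. The induced list had 353 X peaks of 1981 and the uninduced list 255 of 1424. Of these positions, 195 were induced-only, 158 were shared and 97 were uninduced-only. Each shared X peak paired with exactly 1 peak of the other list.

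HMR was mapped by chromatin immunoprecipitation and sequencing (ChIP-Seq) in SL2 cells, also called S2, a cultured line derived from male D. melanogaster embryos. Both groups were the same stably transfected cells with FLAG-HA-HMR under pMT, a metallothionein promoter that copper switches on, beside their own Hmr gene. According to the study's methods the cells also carried a Myc-LHR transgene, which the sample labels do not name. Induced cells received 250 µM CuSO4 for 20 to 24 h, and uninduced cells received none. There were 2 HMR ChIP libraries and 2 inputs from induced cells, against 1 HMR ChIP library and 1 input from uninduced cells. Copper and transgene change together, so their parts in a difference between the lists cannot be told apart, nor can that of the unequal number of libraries. The condition of each list is an inference from the list's name.

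HMR is a chromatin protein that acts with Lhr and with heterochromatin protein HP1a at centromeres, telomeres and sites along the arms, and it is known for killing hybrid males between D. melanogaster and its sister species. Several of its arm sites are known to border insulators, DNA elements bound by proteins such as BEAF-32 and Su(Hw). The single X of male cells is transcribed at a raised level by the dosage compensation complex (MSL), which holds the non-coding RNAs roX1 and roX2, enters the X at GA-rich recognition elements and spreads over the bodies of active genes. The protein CLAMP binds GA repeats at these elements.

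Sequences of peaks with motifs counted in each class are shown first. They were chosen after their values were seen, and all are dm6 positions with sequence from the RefSeq copy of that assembly. The first set is from induced-only peaks at transcript starts. The Sxl entry is the whole peak at chrX:7098061-7098260, plus strand, and the stretch in capitals matches Motif 1, which M1BP binds in core promoters. In the other entries the capitals mark TATCGATA, the DNA replication-related element (DRE) that DREF binds at promoters of growth genes. These are 120 base stretches of the peaks at RpL37-1 (chrX:15139376-15139495), RpS15Aa (chrX:13337706-13337825) and eag, a potassium channel gene (chrX:14955241-14955360), all plus strand.
Sxl: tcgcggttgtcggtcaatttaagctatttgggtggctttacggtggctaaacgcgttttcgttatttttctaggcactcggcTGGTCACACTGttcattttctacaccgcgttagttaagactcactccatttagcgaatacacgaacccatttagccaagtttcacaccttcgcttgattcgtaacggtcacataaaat
RpL37-1: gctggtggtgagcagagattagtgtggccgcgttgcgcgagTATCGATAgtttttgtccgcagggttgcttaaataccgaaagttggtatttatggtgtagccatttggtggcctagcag
RpS15Aa: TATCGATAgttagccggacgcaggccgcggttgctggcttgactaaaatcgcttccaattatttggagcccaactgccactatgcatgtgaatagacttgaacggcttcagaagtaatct
eag: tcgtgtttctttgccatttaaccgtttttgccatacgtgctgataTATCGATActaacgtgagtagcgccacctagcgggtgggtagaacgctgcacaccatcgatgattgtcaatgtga

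The second set is from uninduced-only peaks that hold the GA repeat GAGAGAGA. It does not show the whole range of the class, which runs from 1 copy, as at CG34417, to 13 overlapping copies at CanA-14F. Capitals mark the repeat on the strand shown, or its complement TCTCTCTC where the run lies on the other strand. The roX2 entry is the whole 200 bp peak at chrX:11580157-11580356, plus strand. The others are 60 base windows within a peak, from introns of sw (dynein intermediate chain) at chrX:20231532-20231591, plus strand, of Nup153 (a nuclear pore protein) at chrX:16608071-16608130, plus strand, of CrebB (a cyclic AMP-responsive transcription factor) at chrX:18374670-18374729, minus strand, and of Dop2R (a dopamine receptor) at chrX:20024648-20024707, plus strand.
roX2: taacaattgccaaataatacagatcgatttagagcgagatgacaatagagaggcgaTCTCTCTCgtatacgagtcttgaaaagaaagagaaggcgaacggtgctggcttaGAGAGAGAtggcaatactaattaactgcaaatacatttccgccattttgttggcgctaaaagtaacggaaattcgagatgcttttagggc
sw: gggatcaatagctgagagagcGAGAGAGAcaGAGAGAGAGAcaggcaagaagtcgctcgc
Nup153: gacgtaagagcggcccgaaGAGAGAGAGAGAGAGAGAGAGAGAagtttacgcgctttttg
CrebB: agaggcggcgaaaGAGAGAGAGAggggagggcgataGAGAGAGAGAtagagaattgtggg
Dop2R: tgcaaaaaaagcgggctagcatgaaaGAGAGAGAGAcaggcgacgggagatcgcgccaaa

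The third set is from the shared peaks near ppk8, a sodium channel gene (chrX:3570445-3570564), and upd2, a ligand of the JAK/STAT pathway (chrX:18239374-18239493), both plus strand. Capitals mark a match to the consensus of the insulator protein Su(Hw).
ppk8: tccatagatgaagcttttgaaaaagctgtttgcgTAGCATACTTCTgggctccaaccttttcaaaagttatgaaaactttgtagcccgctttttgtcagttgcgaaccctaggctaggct
upd2: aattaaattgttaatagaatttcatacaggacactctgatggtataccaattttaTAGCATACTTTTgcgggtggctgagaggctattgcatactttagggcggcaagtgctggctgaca

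Of the X peaks of the induced list, 55.2% had no uninduced counterpart (195 of 353, 95% Wilson interval 50 to 60.3), beside 47.2% over the whole induced list. Of the X peaks of the uninduced list, 38.0% had no induced counterpart (97 of 255, interval 32.3 to 44.1), beside 26.6% over the whole uninduced list. With the induced list reduced to its leading lines, as many as the uninduced list has, the unshared shares were 39.3% of induced and 67.8% of uninduced X peaks, so which list had the larger share turned over. These shares follow from the rule that defines the classes and are given as a description. All intervals in the text cover counting error only. There is 1 list per condition and no score or read count per peak, so the depth is unknown, no difference between lists or classes has a replicate error, and none was tested.

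The X peaks stood late in the lines of both lists, whose order is not explained in the sources used here. Each list was divided into 3 equal parts by line. In the last part stood 77.9% of the induced-only X peaks (152 of 195) and 82.5% of the uninduced-only X peaks (80 of 97). Of the shared X peaks, 52.5% stood there by their induced lines (83 of 158) and 60.8% by their uninduced lines (96 of 158). Within the last part, 64.7% of the induced X peaks (235 peaks) and 45.5% of the uninduced X peaks (176 peaks) were unshared, beside 68.9% and 43.6% of the autosomal peaks there. In the leading part the unshared shares on the X were 28.6% of 42 induced and 26.9% of 26 uninduced peaks, beside 23% and 6.68% on the autosomes. Values for the last part of the lines are therefore set beside the start and motif shares.

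Peaks were found along the whole X. The induced list had 15.0 X peaks per Mb and the uninduced list 10.8. The 23 complete stretches of 1 Mb held between 4 and 24 induced peaks and between 3 and 19 uninduced peaks. Stretch 2 from the telomeric end held the most in both lists. The last stretch, number 24, is shorter and held 3 induced peaks and 1 uninduced peak. Stretch 15 held 13 induced-only peaks, 2 shared peaks and 1 uninduced-only peak. Stretch 13 had the fewest induced peaks outside the base of the chromosome, with 2 induced-only, 4 shared and 5 uninduced-only peaks. Over the 23 complete stretches the number of induced-only peaks had a Spearman correlation of -0.02 with shared peaks and 0.06 with uninduced-only peaks. With the number of transcript starts it was 0.34 for induced-only peaks, 0.27 for shared peaks and 0.51 for uninduced-only peaks, all given as descriptions over stretches of 1 chromosome.

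**Figure D1:**
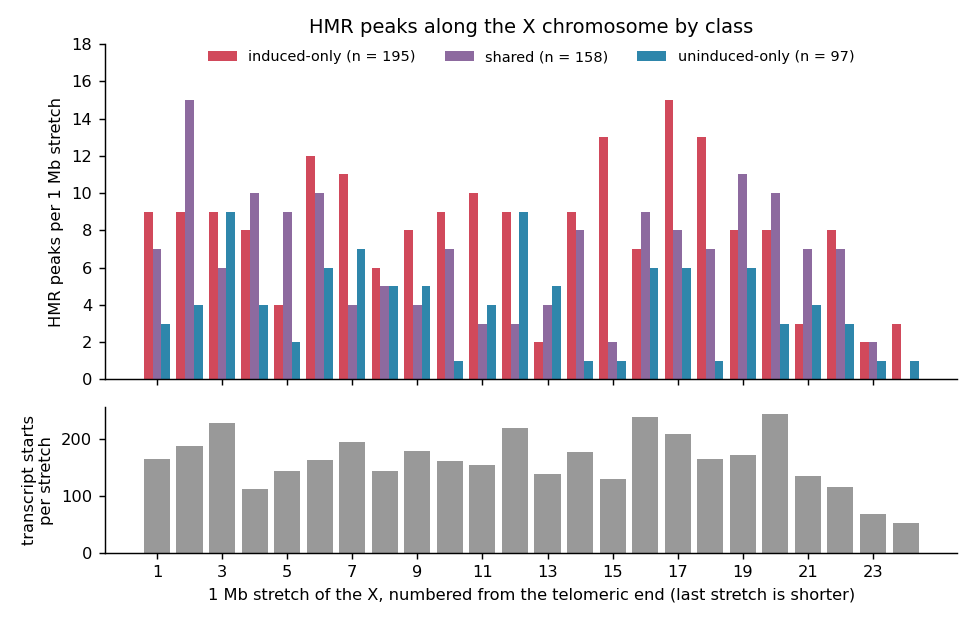
Number of HMR peaks in each 1 Mb stretch of the X, numbered from the telomeric end (horizontal axis), for induced-only, shared and uninduced-only peaks (upper panel), with the number of annotated transcript start positions in each stretch (lower panel). Stretch 15 holds 13 induced-only and 2 shared peaks, and stretch 2 holds 9 induced-only and 15 shared peaks.

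Few peaks were placed in the base of the X, next to the centromere. From 22 Mb to the end of the assembled X, a stretch of 1.54 Mb, the induced list had 7 peaks (4.54 per Mb) and the uninduced list 4 (2.59 per Mb). Below 22 Mb the densities were 15.7 and 11.4 per Mb. The study kept reads that mapped to a single place, and the effect of this on repeat-rich sequence was not tested. The first 1 Mb at the telomeric end held 16 induced and 10 uninduced peaks. The outermost peak of the induced list was shared and lay in an intron of tyn at 149785 to 149984, and the outermost peak of the uninduced list was uninduced-only and lay at lncRNA:CR45473 at 141391 to 141590. At the centromeric side the last induced peak lay at 23416271 to 23416470 and was induced-only. The last uninduced peak lay at 23354434 to 23354633 and was uninduced-only.

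Neighbouring X peaks were usually well separated. In the induced list the median distance between neighbouring centres was 37743 bp (quartiles 14502 to 91769), against 49685 bp in the uninduced list (quartiles 19511 to 127101). Gaps of 1000 bp or less numbered 7 of 352 in the induced list and 2 of 254 in the uninduced list. On the autosomes the medians were 38923 bp and 54414 bp. The centres of a shared pair were a median of 36.5 bp apart (quartiles 20 to 64.5, highest 185). As peaks are 200 bp wide, the class rule keeps shared centres less than 200 bp apart and unshared ones at least that far apart. Distances to the other list therefore follow in part from the rule, and no expected distance was computed. The nearest uninduced peak was a median of 20809 bp from an induced-only peak, and the nearest induced peak a median of 12052 bp from an uninduced-only peak. Only 8 of 195 induced-only and 4 of 97 uninduced-only peaks had a peak of the other list within 1000 bp, the closest at 457 bp. The pairs nearest to the limit between shared and unshared thus had centres 185 bp apart on the shared side and 457 bp apart on the unshared side.

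The densest runs of induced peaks were 4 stretches that held 5 peaks each within 50000 bp. In the run from Remo to RpS15Aa all 5 peaks were induced-only, and 4 of them lay at starts, those of Remo, CG1622, Prx2 (a peroxiredoxin) and RpS15Aa (a ribosomal protein). The run from rut (an adenylyl cyclase used in memory) to Flo2 (flotillin, a membrane scaffold protein) had 4 induced-only peaks and a shared one. Between Cyp1 (a cyclophilin) and nonA (an RNA-binding protein) all 5 peaks lay at starts, and 3 of them were induced-only. The run around chas and raskol (a Ras GTPase-activating protein) had 2 induced-only and 3 shared peaks. Within single genes, CHES-1-like, a forkhead transcription factor gene of 27048 bp, held 3 peaks that were all uninduced-only. The gene sgg, which encodes the kinase GSK3, held 3 that were all induced-only, while Hr4, a nuclear receptor gene, and kirre, an adhesion protein of muscle founder cells, held 3 shared peaks each.

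Induced-only X peaks lay at transcript starts in a larger share than uninduced-only X peaks. A peak centre was within 250 bp of an annotated start in 57.9% of induced-only peaks (113 of 195, interval 50.9 to 64.7) and 20.6% of uninduced-only peaks (20 of 97, interval 13.8 to 29.7), with shared peaks at 41.8% (66 of 158, interval 34.4 to 49.6). Of all X bases, 6.96% lie within 250 bp of a start. On the autosomes the 3 classes were close to each other, at 50.9% of induced-only, 52.0% of uninduced-only and 52.5% of shared peaks. In the last part of the lines the X shares were 60.5% of induced-only, 23.8% of uninduced-only and 47.0% of shared peaks, and 52.7% of the autosomal uninduced-only peaks there were at a start. With an induced list reduced to as many lines as the uninduced one, 53 X peaks counted as induced-only, 173 as uninduced-only and 82 as shared. At a start were 52.8% of these induced-only, 32.9% of these uninduced-only and 36.6% of these shared peaks. The level of the shares moved with the distance, to 33.8% of induced-only and 8.25% of uninduced-only peaks at 100 bp and to 71.3% and 50.5% at 1000 bp, and up to the midpoint of each list it was 44.7% and 13.6%.

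The median distance to the nearest start was 150 bp for induced-only, 876 bp for uninduced-only and 538 bp for shared X peaks. The peaks at starts sat just upstream of them in every class. The centre was upstream in 87.6% of the induced-only start peaks (99 of 113), 90.0% of the uninduced-only ones (18 of 20) and 83.3% of the shared ones (55 of 66). Their median signed positions were -81, -106.5 and -97.5 bp in that order. Starts of both strands within 250 bp, as at divergent gene pairs, were found for 14.9% of all induced-only, 3.09% of all uninduced-only and 8.86% of all shared X peaks. These were 29 of the 113 induced-only, 3 of the 20 uninduced-only and 14 of the 66 shared peaks at a start. On the autosomes the shares of all peaks were 13.8% of induced-only, 20.6% of uninduced-only and 14.4% of shared peaks.

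**Figure D2:**
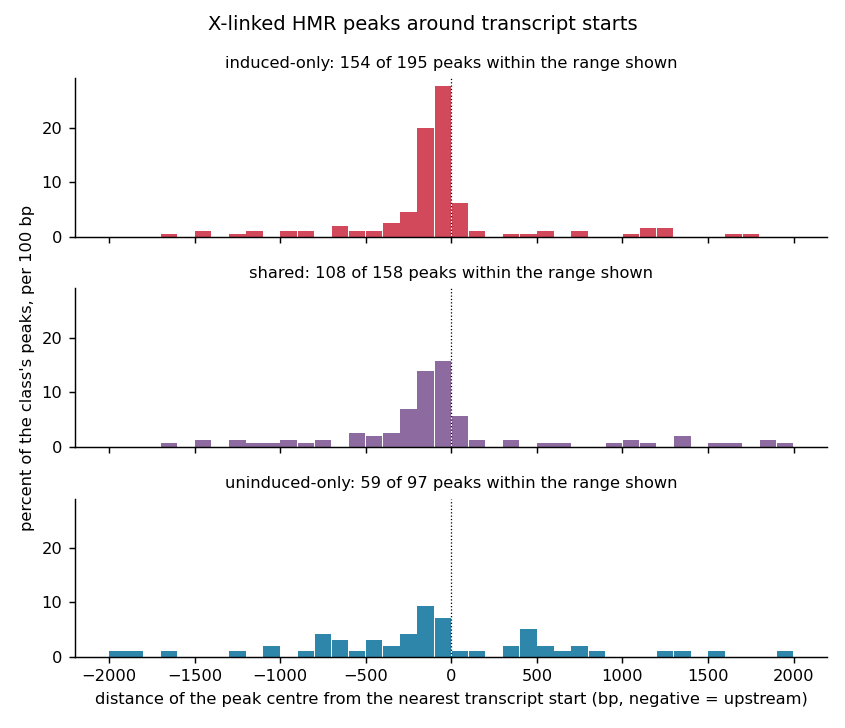
Distance of X peak centres from the nearest transcript start in bp (horizontal axis, negative is upstream), as percent of the peaks of each class per 100 bp, within 2000 bp of a start. Induced-only and shared peaks pile up just upstream of the start, and uninduced-only peaks are spread more widely, with median distances of 150 bp for induced-only and 876 bp for uninduced-only peaks.

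Most uninduced-only X peaks had their centre in introns and 3′ UTRs. An intron or a 3′ UTR held the centre of 30.8% of induced-only peaks (60 of 195, interval 24.7 to 37.6) and 64.9% of uninduced-only peaks (63 of 97, interval 55.0 to 73.7), with shared peaks at 36.7% (58 of 158, interval 29.6 to 44.5). Introns held 48 induced-only, 51 uninduced-only and 51 shared peaks, and 3′ UTRs held 12, 12 and 7 in that order. Intergenic sequence held 116 induced-only, 25 uninduced-only and 78 shared peaks. On the autosomes the intron and 3′ UTR share was 25.5% for induced-only, 42.0% for uninduced-only and 27.1% for shared peaks. The share of all X bases in introns and 3′ UTRs was not computed. Coding exons held 0 induced-only, 1 uninduced-only and 2 shared X peaks. The 0 of 195 allows a share of up to 1.54% at 3 counts.

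**Figure D3:**
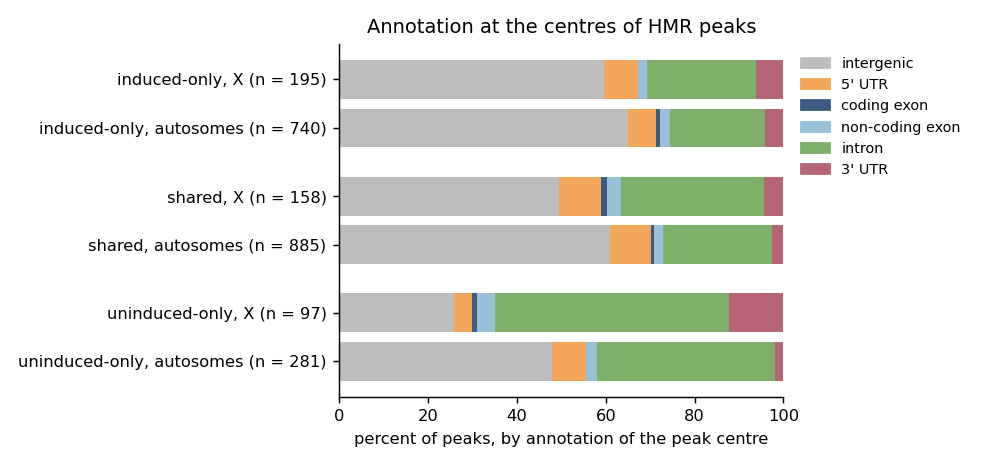
Annotation at the peak centre as percent of peaks (horizontal axis), for the 3 classes on the X and on the autosomes. Introns and 3′ UTRs together make up 64.9% of the uninduced-only X peaks and 42.0% of the autosomal ones.

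Annotated transposable elements overlapped few X peaks. They overlapped 4 of 195 induced-only peaks (2.05%), 0 of 97 uninduced-only peaks, which allows up to 3.09%, and 5 of 158 shared peaks (3.16%), of which 1 had its centre inside the element (0.633%). The autosomal shares were 2.97% of induced-only, 2.49% of uninduced-only and 2.71% of shared peaks. How much of the X lies in such elements was not computed, and the study kept only uniquely mapped reads. The median GC content was 39.5% in induced-only, 38.0% in uninduced-only and 39.0% in shared X peaks, against 42.0% in all 200 bp windows of the X.

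The GA repeat was most frequent in uninduced-only X peaks. It was found on either strand in 0.513% of induced-only (1 of 195, interval 0.0906 to 2.85), 13.4% of uninduced-only (13 of 97, interval 8 to 21.6) and 1.27% of shared X peaks (2 of 158, interval 0.348 to 4.50). All 200 bp windows of the X held it in 1.53% of cases and windows centred on starts in 2.59%. Among the autosomal peaks it was found in 0.946% of induced-only, 1.07% of uninduced-only (3 of 281) and 1.13% of shared peaks. The 3 autosomal uninduced-only ones lie on 3L (1) and 3R (2). In the last part of the lines the shares were 13.8% of uninduced-only X peaks (11 of 80) and 2.33% of autosomal ones (3 of 129). Up to the midpoint of each list there were 22 uninduced-only X peaks, of which 1 held the repeat (4.55%), and with the reduced induced list 8.09% of 173 did. With a shorter repeat of 6 letters, added after the data were seen, the X shares were 7.18% of induced-only, 19.6% of uninduced-only and 6.96% of shared peaks.

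All 13 GA-repeat peaks of the uninduced-only class lay inside a gene, and 0 of them at a start. Over the whole class, 25.8% of the peaks were intergenic (25 of 97) and 20.6% lay at a start (20 of 97). By annotation, 6 centres were in a 3′ UTR, 5 in an intron, 1 in a 5′ UTR and 1 in the non-coding exon of roX2. The introns belonged to sw, Nup153, CrebB, Dop2R and CG34417. The 3′ UTRs were those of CanA-14F (a calcineurin subunit), CG9132, dtn, fs(1)h (a bromodomain chromatin protein), CG7332 and ssx (an RNA-binding protein and paralog of Sxl), and the 5′ UTR was that of su(w[a]) (a splicing regulator). Their lines ran from 754 to 1419 of 1424, with a median of 1334. The repeat lay a median of 36 bp from the peak centre, and within 50 bp in 10 of 13 peaks. In the sequences printed for this set, the run is a single long tract in Nup153 and separate short tracts in sw, CrebB and roX2. The other GA-repeat peaks on the X were shared peaks in an intron of mamo and in the 3′ UTR of HERC2, and an induced-only peak between the starts of CG1998 and Set2.

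Words related to the GA repeat were also frequent in this class. A count of all words of 8 letters with at least 3 G or C, chosen after the data were seen, gave GAGCGAGA in 3 of 195 induced-only, 15 of 97 uninduced-only (15.5%) and 2 of 158 shared X peaks, and in 1 of 281 autosomal uninduced-only peaks. AGAGCGAG and GAAAGAGA were in 13 uninduced-only X peaks each. Any of the leading words of the class, which include GAGAGAGA itself and so the 13 peaks already counted, was in 2.05% of the induced-only X peaks, 23.7% of the uninduced-only ones (23 of 97) and 2.53% of the shared ones. As the words were picked on these peaks, the counts only describe them. The CA repeat CACACACA was in 3.08% of induced-only, 7.22% of uninduced-only (7 of 97) and 3.16% of shared X peaks, beside 5.78% of X windows of 200 bp, and in 8.72%, 15.5% and 10.8% of the 3 classes in 400 bp. Up to the midpoint of each list the CA repeat was in 2.13% of induced-only and 0% of uninduced-only and shared X peaks.

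The peaks at roX2 and nod showed both kinds of site side by side. The induced-only peak at 11580632 to 11580831, line 1056, had its centre 41 bp upstream of the start of nod, a kinesin-like motor of meiosis, and held a Motif 1 match. The uninduced-only peak at 11580157 to 11580356, line 920, lay in the non-coding exon of roX2 (FBgn0019660), whose RNA is part of the dosage compensation complex, and held 2 copies of the GA repeat, 1 on each strand. The centres were 475 bp apart, so the peaks did not overlap. The nearest peak to roX1 was uninduced-only and 18094 bp away.

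**Figure D4:**
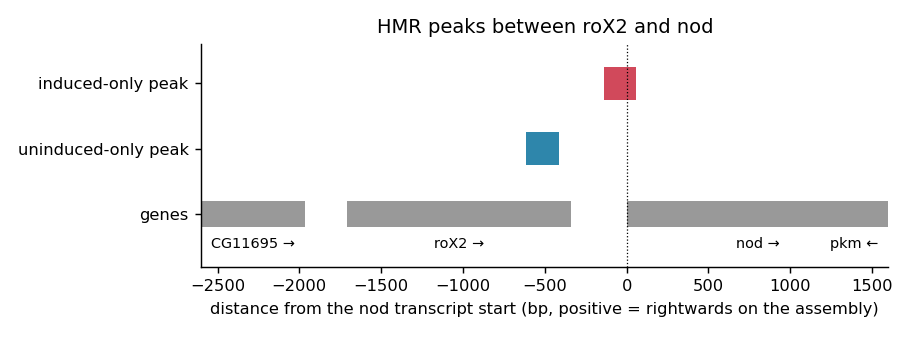
Position of the induced-only peak, the uninduced-only peak and the annotated genes (arrows give the strand), in bp from the nod transcript start (horizontal axis). The induced-only peak spans the nod start, and the uninduced-only peak lies within roX2, with the centres 475 bp apart.

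Promoter motifs were found in a larger share of induced-only X peaks, the class that also had the largest share at starts. Counting peaks with at least 2 copies of CGATA, the core of BEAF-32 sites, on either strand and with overlapping copies included, the share was 26.2% of induced-only (51 of 195, interval 20.5 to 32.7), 4.12% of uninduced-only (4 of 97, interval 1.62 to 10.1) and 12.7% of shared X peaks (20 of 158, interval 8.35 to 18.7). It was 4.14% of X windows and 18.9% of windows centred on X starts. Start peaks had median centres at -81 bp (induced-only), -106.5 bp (uninduced-only) and -97.5 bp (shared). The start windows used here and for the next 2 motifs therefore do not cover quite the same sequence as the peaks. Among peaks at a start it was 40.7% of induced-only (46 of 113), 15.0% of uninduced-only (3 of 20) and 27.3% of shared peaks (18 of 66), while autosomal start peaks of these classes had 26.0%, 13.7% and 22.4%. The X shares in the last part of the lines were 26.3% of induced-only, 5.0% of uninduced-only and 14.5% of shared peaks. Up to the midpoint of each list they were 12.8% of 47 induced-only, 0% of 22 uninduced-only and 14.3% of 28 shared peaks. There induced-only peaks were thus not above shared ones, with few peaks in each class. In 400 bp around the centre the shares were 39.0% of induced-only, 14.4% of uninduced-only and 29.7% of shared peaks.

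DRE was found in 20 of 195 induced-only (10.3%, interval 6.74 to 15.3), 2 of 97 uninduced-only (2.06%) and 6 of 158 shared X peaks (3.80%), against 0.703% of X windows and 8.06% of start windows. Among peaks at a start it was in 15.9% of induced-only (18 of 113, interval 10.3 to 23.8), 10.0% of uninduced-only (2 of 20, interval 2.79 to 30.1) and 9.09% of shared peaks (6 of 66). Over all peaks of a class, the shares in the last part of the lines were 10.5%, 2.5% and 6.02% in the same order. They moved to 6.38% of induced-only and 0% of uninduced-only and shared peaks up to the midpoint of each list. In 400 bp they moved to 15.9% of induced-only and 9.49% of shared peaks. With the reduced induced list they were 9.43% of induced-only, 4.05% of uninduced-only and 1.22% of shared peaks. The letters of DRE hold CGATA on both strands, so each of these peaks also counts as a CGATA pair. Of the 20 induced-only DRE peaks 18 lay at a start, among them those of RpL37-1, RpS15Aa, RpL36, eag, Rnp4F, Tao (a kinase), SkpA (a ubiquitin ligase subunit), mud (a spindle protein) and Nrg (neuroglian, an adhesion protein). The 2 of the uninduced-only class lay at nmdyn-D6 and at SrpRalpha, which encodes a signal recognition particle receptor subunit. The autosomal shares were 6.49% of induced-only, 2.85% of uninduced-only and 4.97% of shared peaks.

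Motif 1 was found in 8 of 195 induced-only (4.10%, interval 2.09 to 7.89), 0 of 97 uninduced-only and 3 of 158 shared X peaks (1.90%), beside 0.153% of X windows and 2.97% of start windows. The 0 of 97 allows up to 3.09%. Among peaks at a start it was in 7.08% of induced-only (8 of 113), 0 of 20 uninduced-only (up to 15.0%) and 4.55% of shared peaks (3 of 66). In the last part of the lines it was in 3.95% of induced-only, 0 of 80 uninduced-only (up to 3.75%) and 1.20% of shared peaks. With 1 mismatch it was in 12.8% of induced-only peaks, and up to the midpoint of each list in 0 of 28 shared peaks. All 11 of these peaks lay at a start. The induced-only ones were at BTBD9 and Atg8a (an autophagy ubiquitin-like protein), nod, Sxl, Rnp4F, CG1998 and Set2 (a histone methyltransferase), deltaCOP (a vesicle coat subunit), AMPdeam (AMP deaminase) and CG42271. The shared ones were at cib (an actin-binding protein), CG3918 and CG42340, and Ran (the GTPase of nuclear transport). Autosomal shares were 4.05% of induced-only, 0.356% of uninduced-only and 1.69% of shared peaks.

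Su(Hw) matches showed another distribution and were found mostly in shared peaks away from starts. They were in 5.13% of induced-only (10 of 195, interval 2.81 to 9.18), 1.03% of uninduced-only (1 of 97) and 12.7% of shared X peaks (20 of 158, interval 8.35 to 18.7), beside 0.444% of X windows and 0.102% of start windows. Of the matches, 0 of 10 induced-only, 0 of 1 uninduced-only and 3 of 20 shared ones were in a peak at a start. Among shared peaks not at a start the share was 18.5% (17 of 92). In shared peaks the match lay a median of 29.5 bp from the peak centre, within 50 bp in 15 of 20. The autosomal shares were 5.95%, 2.14% and 12.1% in the same order of classes. In the last part of the lines the X shares were 5.26%, 1.25% and 10.8%, and allowing 1 mismatch they were 13.8%, 6.19% and 31.6%. The shared share was 21.4% of 28 peaks up to the midpoint of each list. With the reduced induced list the shares were 5.66% of induced-only, 5.78% of uninduced-only and 13.4% of shared peaks.

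The shared Su(Hw) peaks included the X peak that stood first among the shared ones, at line 27 among the induced peaks and line 20 among the uninduced ones, in an intron where ppk8 and DIP-alpha overlap. Others were an intergenic peak downstream of upd2 (line 114), 1 beyond flam, a piRNA cluster that silences transposable elements, within an annotated gtwin element (line 101, 209611 bp from the start of flam), 1 in an exon of flam, and peaks in introns of Hr4, CG5445, Flo2, CCKLR-17D3, CG6023, CG12541, f and lncRNA:CR44779, which held 2. Those at starts were at Inx5 (a gap junction protein), tw (a protein mannosyltransferase) and a proline tRNA gene inside Bx. The other shared ones lay near or in CG42699, CG15468, CG32812 and Diedel3. The induced-only ones were at Appl, CG10804, bves, CG42246, CG9360, CG1632, Hk, Obp8a and sgg, which held 2. The uninduced-only one lay 4690 bp from lncRNA:CR44997.

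**Figure D5:**
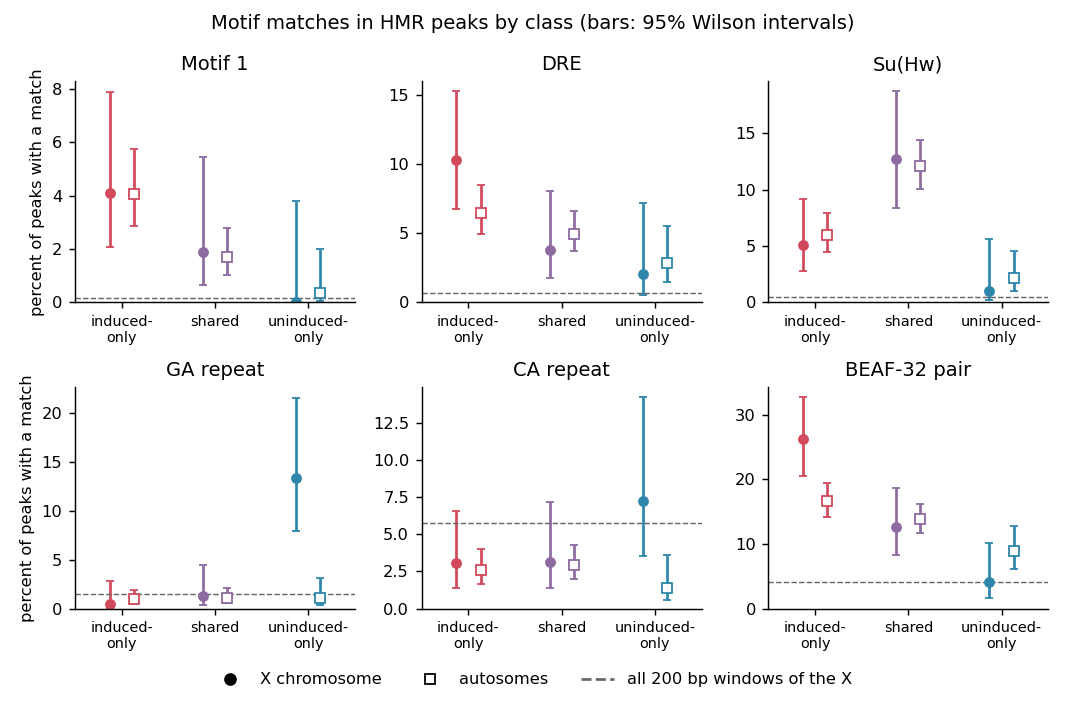
Percent of peaks that hold each of the 6 motifs (vertical axis) in induced-only, shared and uninduced-only peaks of the X (filled circles) and the autosomes (open squares), with 95% Wilson intervals, and the share of all 200 bp windows of the X (dashed line). The GA repeat is at 13.4% in uninduced-only X peaks, and the CGATA pair (BEAF-32 pair) at 26.2% in induced-only X peaks.

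The X peaks that stood first in their lists carried few promoter features. The first 5 induced-only peaks were in the 3′ UTR of Rab35 (a vesicle GTPase, 20156167 to 20156366, line 12), in an intron of dnc (a cyclic AMP phosphodiesterase, line 142), near lncRNA:CR45667 (line 380), and in the regions of CG5445 (line 412) and CG5334 (line 477). All 5 lay more than 250 bp from a start. The first shared peaks besides those at ppk8, flam and upd2 were beyond CG10918 (induced line 35, uninduced line 627) and in an intron of CG15249 (induced line 131, uninduced line 752). The first 3 uninduced-only peaks were the CHES-1-like introns (lines 37, 143 and 148), followed by lncRNA:CR44619 (line 329) and an intron of Smr, a nuclear corepressor (line 419).

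Counted by gene, 231 X genes had an induced peak at a start and 113 had an uninduced one. Both lists marked 82 genes, the induced list alone 149 and the uninduced list alone 31. Of the 2196 protein-coding genes of the X, 10.1% had an induced peak at a start (221 genes) and 4.92% an uninduced one (108 genes). Peaks inside gene bodies were similar in number, with 144 genes holding an induced and 140 an uninduced peak.

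Ribosomal protein genes are expressed highly in all growing cells. Of the 14 on the X, 9 had an induced peak at a start (64.3%, interval 38.8 to 83.7) and 2 an uninduced one (14.3%, interval 4.01 to 39.9), beside 10.1% and 4.92% of all X protein-coding genes. The 7 with an induced-only peak were RpL36 (58 bp from the start), RpL35 (66 bp), RpL22 (84 bp), RpS15Aa (84 bp), RpL17 (91 bp), RpL37-1 (108 bp) and RpL7A (122 bp), and RpS14a and RpS5a had shared peaks. On the autosomes 34 of 78 ribosomal protein genes had an induced peak at a start (43.6%, interval 33.1 to 54.6) and 27 an uninduced one (34.6%, interval 25 to 45.7). RpS14a and RpS14b are adjacent copies, and the peak was placed at the first.

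The other gene lists are small and are set beside the shares over all X protein-coding genes, which were 10.1% with an induced and 4.92% with an uninduced peak at a start. Of 9 dosage compensation and sex determination genes on the X, 1 had a peak at a start. This was Sxl, the switch gene of female development, with an induced-only peak 107 bp upstream (line 1402), while roX2 held its uninduced-only peak. The nearest peak to mof, the acetyltransferase of the dosage compensation complex, was uninduced-only and 3859 bp away. Of 10 chromatin genes on the X, 0 had a peak at a start in either list, a number too small to set apart from those shares, and ph-p, a Polycomb group gene, held an uninduced-only peak. Hmr itself lies on the X and had no peak, with the nearest one, a shared peak, 29330 bp away. Of 26 developmental and signalling genes, 4 had an induced peak at a start and 3 an uninduced one. N (the Notch receptor), sd (a TEAD transcription factor) and Bx (a LIM-domain protein) had shared peaks, and rut had an induced-only peak at 105 bp.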

How the data were processed

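The submitters' processing notes name Bowtie2 2.2.9, SAMtools 1.3.1, HOMER 4.9 and dm6. According to the methods, single-end reads of 50 bp were aligned, uniquely mapped reads kept and peaks called with HOMER in its factor mode at 2-fold over input. The deposited lists give chromosome, start and end of 200 bp peaks and no other value, so their unit is a position and no score, count or ratio could be used. Whether the induced libraries were pooled is not given in the sources used here.

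Python 3.11.15 was used to find overlaps, distances, annotation and motif matches (libraries pandas 2.3.3, numpy 2.4.6, scipy 1.17.1 and, for figures, matplotlib 3.10.9). Genes and elements came from Ensembl release 115 and sequence from the RefSeq copy of the dm6 assembly. Shared peaks were described at their induced position. Motifs were searched as exact consensus on both strands, and Motif 1 and Su(Hw) contain degenerate letters. The code was tested on simulated data with planted overlaps and motifs.

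The members, gene lists and motifs were chosen with earlier results of these data known. Named peaks were the first 5 of each class by line, those nearest the ends of the X, those with Motif 1 or Su(Hw), the densest runs of induced peaks and peaks at starts of listed genes. Other named peaks and all printed sequences were chosen after their values were seen. Of the 13 listed chromatin genes 3 are not on the X and were left out. Input libraries entered only through the authors' peak calling.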

Additional observations from a re-analysis of the deposited data

How the results depend on the processing

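Of 170 alternative values for 30 results, 118 stayed near their main value and 52 moved. For shares, near means inside the Wilson interval of the main value. For spacing and gene counts it means inside a fixed fold range around the main value, which is not a measured spread. Each value was set beside its own main value only, so a change of order between lists or classes was not counted. The order of the lists in unshared share on the X did turn over with the shortened induced list. Its main values were 55.2% of induced and 38.0% of uninduced peaks. No paired analysis was possible because the peaks come as 1 list for each condition, with no values per replicate. Leaving out a replicate and a stricter peak threshold were not run, since the lists hold no values per library and no scores. With the induced list shortened to the length of the uninduced list, the unshared share on the X was 39.3% of induced and 67.8% of uninduced peaks, the start share of uninduced-only peaks 32.9%, the GA repeat share of induced-only peaks 0%, the DRE share of shared peaks 1.22% and the Su(Hw) share of uninduced-only peaks 5.78%. A reciprocal overlap of 50% gave 44.3% unshared uninduced peaks. Up to the midpoint of each list, which leaves 47 induced-only, 28 shared and 22 uninduced-only peaks on the X, 62.7% of induced peaks were unshared. There the start share was 44.7% of induced-only, 13.6% of uninduced-only and 28.6% of shared peaks. Induced-only peaks there had DRE in 6.38%, the CGATA pair in 12.8% and the GA repeat in 0%. Uninduced-only peaks there had the GA repeat in 4.55% and DRE, the CA repeat and the CGATA pair in 0% each. Shared peaks there had Su(Hw) in 21.4% and Motif 1, DRE, the GA repeat and the CA repeat in 0% each. Start shares with a start distance of 100 bp were 33.8% of induced-only, 8.25% of uninduced-only and 21.5% of shared peaks. Asking for a start on the peak gave the same values, as it is nearly the same criterion for peaks of 200 bp. At 500 bp the uninduced-only share was 35.1%, and at 1000 bp the shares were 71.3%, 50.5% and 57.0% in the same order of classes. Genes with a peak at a start numbered 359 in the induced and 219 in the uninduced list at 1000 bp, and 144 genes held an induced peak anywhere in the gene. In 400 bp around the centre, induced-only peaks had DRE in 15.9%, the CA repeat in 8.72% and the CGATA pair in 39.0%, uninduced-only peaks the CA repeat in 15.5% and the CGATA pair in 14.4%, and shared peaks DRE in 9.49%, Su(Hw) in 19.0%, the CA repeat in 10.8% and the CGATA pair in 29.7%. With 1 mismatch, Motif 1 was in 12.8% of induced-only peaks, and Su(Hw) in 13.8% of induced-only, 6.19% of uninduced-only and 31.6% of shared peaks. A GA repeat of 6 letters, an alternative chosen after seeing the data, as were the values for the last part of the lines and the leading words, was in 7.18% of induced-only and 6.96% of shared peaks. Counting only peak centres inside a transposable element gave 0.633% of shared peaks. In these alternatives induced-only X peaks stayed above uninduced-only ones in start share, and uninduced-only X peaks above induced-only ones in GA repeat share. Other class orders did not hold. With the shortened induced list Su(Hw) was in 5.66% of induced-only and 5.78% of uninduced-only peaks, and DRE in 1.22% of shared and 4.05% of uninduced-only peaks. Up to the midpoint of each list the CA repeat was in 2.13% of induced-only and 0% of uninduced-only peaks. There the CGATA pair was in 12.8% of induced-only and 14.3% of shared peaks. Where fewer peaks remain, the share rests on fewer peaks, and the cause of the other moves was not tested.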
